A study of Homo sapiens with 36 samples.

Results

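TET1 binding in HEK293T cells that received the siRNA called siNC was described from its own peak list, which sets the TET1 pull-down against input chromatin. All siNC peaks on chromosomes 1 to 22 were taken, which gave 27171 of the 28450 siNC peaks (95.5%). The 6 peak lists of the series hold 62066 peaks in all. HEK293T is an established human embryonic kidney line that carries the SV40 large T antigen and an abnormal chromosome number, so copy number differs along its genome. The siNC group comprised 3 TET1 pull-down libraries and 3 input libraries, each from cells transfected with siNC. The check group, siCHD5, had 3 pull-down and 3 input libraries from cells transfected with an siRNA named for CHD5, a chromatin-remodelling ATPase of the NuRD complex. Cells given siCHD3, siCHD4, siMBD2 or siMBD3, siRNAs named for other proteins of that complex, had lists of 65, 53, 253 and 159 intervals on chromosomes 1 to 22. These lists are used below only beside the strongest sites. siNC is read here as the control siRNA, since each of the others carries a gene's name. The time between transfection and harvest is not given in the sources used here.

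Replicates 1 to 3 were pooled into 1 list by the authors, so no spread between cultures can be given. Values below describe 1 list, and no p-value was computed. Read totals were not analysed here. Shares carry exact Clopper-Pearson 95% intervals and densities carry exact Poisson 95% intervals, which cover counting error only. Coordinates are those of hg19, counted from 1.

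TET1 is a dioxygenase that oxidises the methyl group of methylated cytosine, the first step of active DNA demethylation. Its CXXC zinc finger binds DNA rich in unmethylated CpG, and in many cell types the protein is known at CpG-rich promoters and at enhancers. NuRD, the complex to which the siRNA targets of the series belong, couples nucleosome remodelling with histone deacetylation and includes methyl-CpG-binding subunits.

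The siNC map consisted of short, well-separated intervals. The 27171 peaks lay in 26807 distinct intervals, because an interval with several summits is listed once per summit. Together the intervals covered 8.47 Mb of the 2879 Mb between the start of each chromosome and its last interval. Median width was 299 bp, with quartiles of 251 and 357 bp. The narrowest interval had 203 bp and the shortest gap between neighbouring intervals was 204 bp, so both width and spacing ended at nearly the same lower bound. Caller settings are not given in the sources used here, so widths describe the called intervals and not the size of bound sites. Only 1004 intervals (3.75%, 95% interval 3.52 to 3.98) reached 500 bp, and 22 reached 1 kb.

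Nearly every interval had a single summit. A single summit was listed for 26453 intervals (98.7%, 98.5 to 98.8), 2 summits for 345, 3 summits for 8 and 4 summits for 1. The summit sat near the middle: over the single-summit intervals its median position was 49.4% of the width, with quartiles of 44.04% and 54.98%. Intervals with several summits numbered 354 (1.32%, 1.19 to 1.46), and their share fell to 0.706% when only peaks of fold 4 or more were kept. The 354 had a median width of 636 bp, against 297 bp for single-summit intervals. Their median fold was 6.43 (quartiles 4.10 and 9.52), against 6.81 (5.04 and 9.06) for single-summit intervals. Pull-down pileup had a median of 33 reads in both. Within an interval, consecutive summits lay 74 to 984 bp apart, with a median of 316.5 bp, close to the width of 1 ordinary interval.

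The interval with 4 summits lay on chromosome 1 at 45196161 to 45197276. It spanned 1116 bp and reached 8.93-fold, and siCHD5 had a 13.9-fold peak there. Among the intervals with 3 summits, the highest fold was 11.3, on chromosome 19 at 13075763 to 13076719. Chromosome 16 had one of 8.12-fold at 84655765 to 84656707. Chromosome 1 had one of 7.96-fold at 210547123 to 210548080, and chromosome 17 one of 6.47-fold at 19092951 to 19093654. The widest interval of all, on chromosome 14 at 74416674 to 74418015, spanned 1342 bp with 2 summits and 6.29-fold enrichment. Next came an interval of 1339 bp and 13.6-fold on chromosome 17, at 39845140 to 39846478. One of 1327 bp and 7.10-fold lay on chromosome 1 at 16992647 to 16993973, and one of 1304 bp and 11.3-fold on chromosome 17 at 19044834 to 19046137. Each of the 10 widest intervals had a siCHD5 peak, beside 85.4% of all siNC intervals.

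Fold enrichment is the authors' ratio of pull-down to local input at the summit, and here it ranks peaks within the siNC list. Median fold was 6.75, with quartiles of 4.98 and 9.04 and a range of 1.09 to 44.3. Fold 4 was reached by 23681 peaks (87.2%), fold 10 by 4956 (18.2%), fold 15 by 779 (2.87%), fold 20 by 121 and fold 25 by 20. Fold and the deposited −log10 p-value together give the reads piled up in the pull-down and the input background at each summit. These could be recovered for 27169 peaks. Pull-down pileup had a median of 33 reads (quartiles 23 and 46), and input background had a median of 3.70 (2.69 and 5.28). This background is the local value behind the authors' fold, on the scale of the pull-down, and not a count of raw input reads. Wherever input reads are given below, this value is meant. For 18.2% of intervals the input background lay within 0.01 of its lowest value, 2.497 reads. This shared value is read here as a floor and not as a local count of input reads.

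Strong intervals had more pull-down reads and a somewhat lower input background. Intervals were ranked by fold and cut into 10 classes of nearly equal number. The highest class had a median of 57 pull-down reads over an input background of 3.12, and the lowest class had 16 over 4.30. Median width was 383 bp in the highest class and 249 bp in the lowest. Across intervals, fold had a Spearman correlation of 0.73 with pull-down pileup, −0.24 with input background and 0.53 with width. Fold is computed from the first 2 of these, and width is drawn from the same signal, so these correlations describe the list and are not independent measurements. Intervals with several summits were more frequent at both ends of the fold scale: 2.28% in the lowest class, 0.741% in the fourth and 1.75% in the highest.

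**Figure D1:**
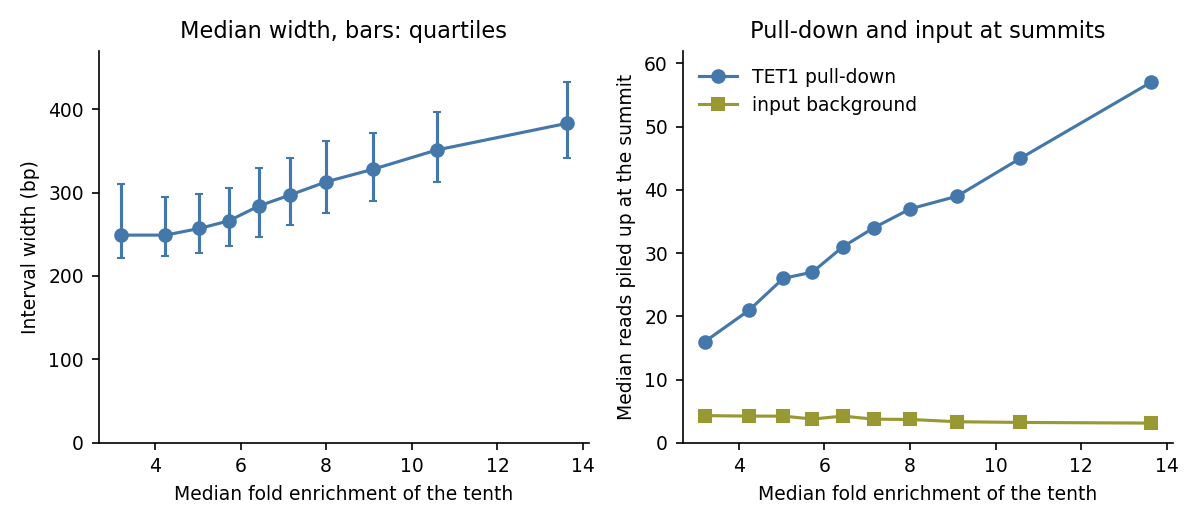
siNC intervals on chromosomes 1 to 22 in 10 classes of fold enrichment. Left, median interval width in bp with quartiles as bars. Right, median TET1 pull-down reads (circles) and median input background on the pull-down scale (squares) at the summit. Width and pull-down pileup are higher in higher classes, to 383 bp and 57 reads in the highest, while input background lies between 3.12 and 4.30 and is lowest in the highest class.

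A small set of intervals combined low fold with many reads. Fold was under 2 at 42 intervals (0.157%, 0.113 to 0.212). Pileups could not be recovered for 2 of the 42. Over the rest, the median was 490.5 pull-down reads and the median input background was 315, against the list's medians of 33 and 3.70. The median width of the 42, 307 bp, was like that of the whole list. Peak-poor stretches were set as the longest span between intervals of fold 4 or more, with 1 Mb on either side, and held 387 intervals (1.44%). They include 40 of the 42 intervals of fold under 2, and since the same folds set the stretches this count is no separate result. Most stretches surround the centromere, but on chromosomes 3, 13, 14, 15 and 22 that span fell away from the centromere.

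The strongest sites were wide for the list, had 1 summit each and were spread over 11 chromosomes. The 20 intervals of highest fold ran from 44.3-fold to 25.3-fold, and the 21st reached 24.7-fold. Their widths lay between 407 and 800 bp with a median of 468 bp, where the upper quartile of the list was 357 bp and its 95th percentile 471 bp. They had 91 to 262 pull-down reads (median 132.5) over 2.497 to 8.98 input reads (median 3.43). Chromosomes 16 and 17 held 4 each. A neighbour lay within 10 kb of 7 of the 20, and 2 had no neighbour within 100 kb, beside 30.95% and 11.1% of all siNC intervals.

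The first site, on chromosome 17 at 43212531 to 43213330, reached 44.3-fold, with 154 pull-down reads and input background at its floor of 2.497. Another interval ended 1.73 kb before it. The second, on chromosome 17 at 41837676 to 41838177, had 133 reads over 3.12 (32.5-fold). The site on chromosome 16 at 90182560 to 90183025 had 169 reads over 4.84 (29.1-fold). It lay in the last window of that chromosome, which held 3 intervals. The last of them ended at 90282056, so this window covers less than 1 Mb. At the opposite end of that chromosome, the site at 60818 to 61233 was its first interval, with 135 reads over 3.70 (28.95-fold). Both chromosome ends thus carried one of the 5 highest sites. The largest pull-down pileup of the 20, 262 reads over 8.98, was on chromosome 19 at 50604151 to 50604620 (26.4-fold), inside the longest chain of intervals, which is described further on. An isolated site of 25.7-fold lay on chromosome 4 at 171180707 to 171181170, with gaps of 120.5 and 115 kb on its sides. Another, of 25.4-fold, lay on chromosome 3 at 113006885 to 113007307, with gaps of 152 and 289 kb.

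Further sites of the 20 had folds close to one another. Chromosome 16 had a 26.6-fold site at 4303989 to 4304446, and chromosome 7 a 26.3-fold site at 101151020 to 101151504. Sites of 26.1-fold lay on chromosome 5 at 133375131 to 133375676 and, at 26.09-fold, on chromosome 17 at 32688491 to 32688905. Chromosome 15 had a 26.03-fold site at 73928721 to 73929180, and chromosome 5 a second one, of 25.6-fold, at 122946705 to 122947200. A 25.5-fold site on chromosome 6 lay at 136547260 to 136547767, with its nearest neighbour before it 550 kb away. Chromosome 1 had a 25.4-fold site at 182753693 to 182754136, which had close neighbours on both sides, 1.9 kb before it and 1.74 kb after it. The other 5 included a 29.2-fold site on chromosome 7 at 150869517 to 150869997 and a 28.7-fold site on chromosome 17 at 17259320 to 17259822, 0.785 kb after another interval. Chromosome 9 had a 26.07-fold site at 130879908 to 130880344, where siCHD5 had the highest of its folds over the 20. Chromosome 5 had another, of 25.27-fold, at 111496231 to 111496849, and chromosome 16 had a 25.3-fold site at 67850462 to 67850868. siCHD5 had a peak at each of the 20, beside 99.8% of the siNC intervals in the highest of the 10 classes of fold. Its folds at the 20 ran from 12.1 to 47.6 in its own list. Of the short lists, siMBD2 had a peak at 2 of the 20, siCHD4 at 1, and siCHD3 and siMBD3 at 0. Over all siNC intervals siMBD2 met 0.201%, siCHD4 0.123%, siCHD3 0.127% and siMBD3 0.131%. The counts of siMBD2 and siCHD4 at the 20 lie above these shares, but they rest on 2 sites and 1 site, and the difference was not tested.

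Intervals were spaced unevenly. The median gap between consecutive intervals was 47.9 kb (95% interval 46.9 to 48.8), with quartiles of 16.4 and 116 kb, while the mean was 104 kb. Intervals placed at a constant rate with that mean would have a median gap of 72.0 kb. The median was 0.460 of the mean, against 0.693 for a constant rate, and with gaps of 1 Mb or more left out it was 0.516. Both short and long gaps were in excess. Gaps under 10 kb made up 17.4% (16.9 to 17.9), where a constant rate gives 9.17%, and gaps under 1 kb made up 1.81% against 0.958%. At the other end, 168 gaps (0.627%, 0.536 to 0.729) reached 1 Mb, where a constant rate gives 0.00662%. The long gaps include sequence that reads cannot reach, such as centromeres.

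**Figure D2:**
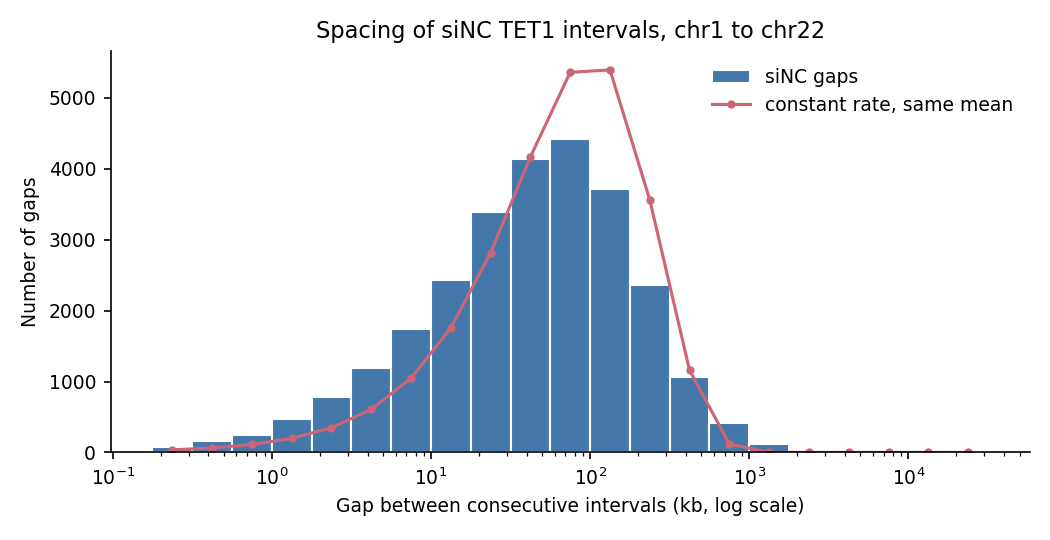
Number of gaps between consecutive siNC intervals by gap length in kb on a log scale (bars), with the numbers that a constant rate of the same mean would give (line). The bars exceed the line in each bin up to 31.6 kb and in the bins above 562 kb, and fall short of it between; the siNC median is 47.9 kb.

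A neighbour lay within 10 kb of 8298 intervals (30.95%, 30.4 to 31.5), and 2971 (11.1%, 10.7 to 11.5) had none within 100 kb. Crowded intervals were slightly stronger and wider. Median fold was 7.02 with a neighbour within 10 kb, 6.81 at 10 to 100 kb and 6.30 beyond 100 kb, and median width was 310, 297 and 278 bp. Pull-down pileup followed, with medians of 35, 33 and 30 reads, while input background had the same median of 3.70 reads in all 3 classes. These differences were small beside the spread of single intervals, whose fold quartiles were 5.14 and 9.48 in the crowded class and 4.86 and 8.01 in the isolated class. Nor did crowding rise steadily with fold. Over the 10 classes of fold, the share with a neighbour within 10 kb was 32.2% in the lowest, 27.7% in the third and 38.0% in the highest. The fold of an interval said little about that of the next: the Spearman correlation was 0.082 over 26785 consecutive pairs and 0.14 over the 4660 pairs less than 10 kb apart.

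Counted in windows of 1 Mb, intervals were concentrated in part of the genome. The 2891 windows held a median of 8 intervals (quartiles 4 and 13), a mean of 9.27 and a maximum of 51. The variance was 5.80 times the mean, where a constant rate gives a ratio of 1, and 4.91 times the mean over windows with at least 1 interval. The densest 10% of windows, 289 in number, held 7187 intervals (26.8%, 26.3 to 27.3). Windows without an interval numbered 252 (8.72%). Neighbouring windows had like counts, with a Spearman correlation of 0.59 over 2869 adjacent pairs. Windows with more intervals had a slightly higher median fold (Spearman correlation 0.26 over 2047 windows with 5 or more intervals).

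**Figure D3:**
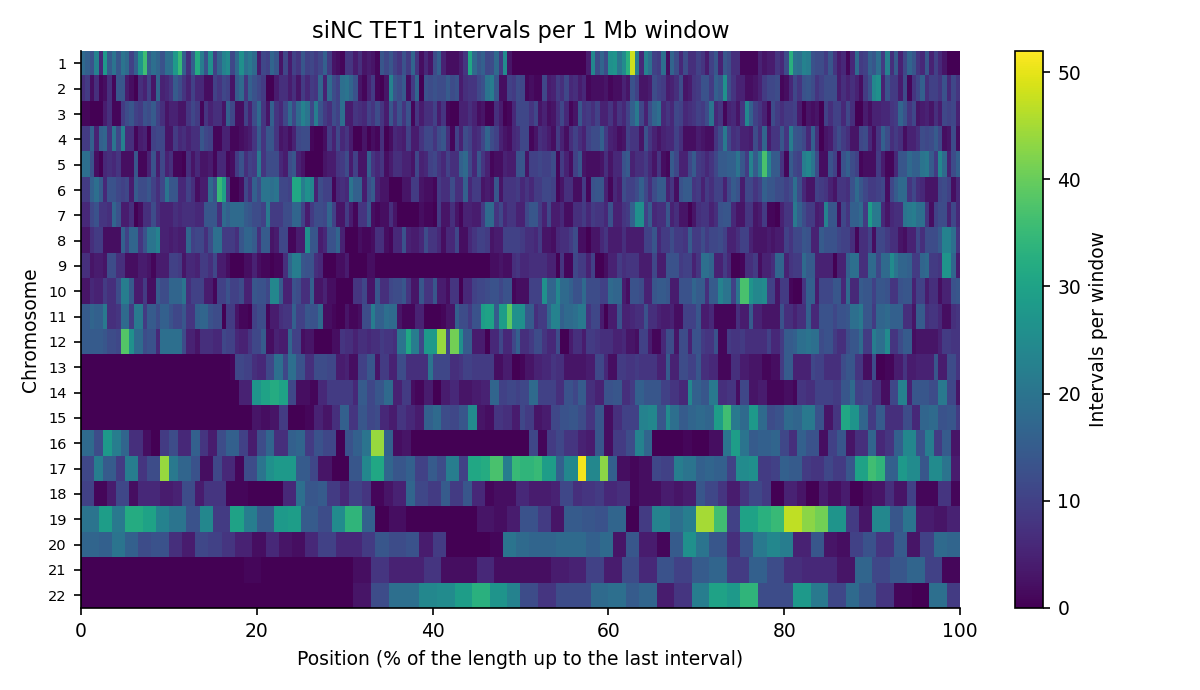
siNC intervals per 1 Mb window (colour) along chromosomes 1 to 22 (rows), with position given as a percentage of the length up to the last interval. Bright windows stand in runs, above all on chromosomes 17 and 19; the highest value is 51, and dark blocks mark the longest spans without an interval.

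The window with 51 intervals lay on chromosome 17 at 46 to 47 Mb, the window of the HOXB genes. It was followed by chromosome 1 at 156 to 157 Mb (48), chromosome 19 at 48 to 49 Mb (47) and at 42 to 43 Mb (45), and by chromosome 16 at 30 to 31 Mb, chromosome 12 at 54 to 55 Mb and chromosome 17 at 7 to 8 Mb (44 each). Chromosome 19 at 49 to 50 Mb and chromosome 17 at 48 to 49 Mb held 43 each. On chromosome 19 the 3 windows from 48 to 51 Mb stood side by side with 47, 43 and 41 intervals. The window from 50 to 51 Mb also had the highest median fold of the 12 densest windows, 10.6, against 6.17 to 8.28 in the others. Of its 41 intervals, 22 belong to the longest chain, described further on, and the 19 outside that chain had the same median fold of 10.6. In the window from 48 to 49 Mb, 14 of the 47 intervals belong to the second chain, and the 33 outside it had a median fold of 6.95, against 8.01 for the whole window.

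Gene clusters of known place in hg19 were set against these counts in whole 1 Mb windows. The windows come from general knowledge of the build, not from an annotation, and hold other genes as well. HOX genes encode the homeodomain factors that pattern the body axis. Intervals numbered 51 in the HOXB window and 44 in the HOXC window, more than in 99.97% and 99.8% of all windows. HOXA had 18 in its window and HOXD had 24 in 2 windows, or 12 per Mb. Median fold was higher in the HOXB and HOXC windows (6.81 and 7.48) than in the HOXA and HOXD windows (5.05 and 5.06). Clustered protocadherins, cell adhesion proteins of neurons, had 37 intervals with a median fold of 5.36 and a highest fold of 17.9. The window of IGF2 and H19, an imprinted pair, had 16.

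Windows of tissue-restricted clusters differed widely among themselves. The olfactory receptor genes on the long arm of chromosome 11 next to the centromere had 4 intervals over 2 windows, and the beta-globin genes with their flanking olfactory receptors had 15 over 2 windows. The alpha-globin window had 18, among them the 28.95-fold site at the end of chromosome 16. Keratins of type II had 56 over 2 windows, and keratins of type I with the keratin-associated proteins had 22 in 1. Keratin-associated proteins on chromosome 21 had 19 over 2 windows. Immunoglobulin lambda genes had 62 over 2 windows and the T cell receptor alpha and delta genes had 30 in 1 window, while the immunoglobulin heavy chain window had 11. Counts of these windows thus ran from low to high. The windows hold other genes as well, and expression was not analysed here, so the counts cannot be given to the named clusters. Histone genes on the short arm of chromosome 6 had 65 over 2 windows, at a low median fold of 4.72.

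The major histocompatibility complex, which encodes the antigen-presenting proteins, had 20 intervals over 4 windows, or 5 per Mb, fewer than the median window. Its median input background was at the floor of 2.497 reads, which 18.2% of all intervals share, and its median pull-down pileup was 22 reads. The siNC list also holds 43 peaks on 7 alternative versions of this region, to which reads of the region can map as well as to chromosome 6. Their part in the low count was not tested.

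At a finer scale, intervals less than 10 kb apart were joined into chains. The 22147 chains comprised 18509 single intervals, 2900 pairs and 557 chains of 3. Another 132 chains had 4 intervals and 49 had 5 or more. Chains of 3 or more held 2498 intervals (9.32%, 8.97 to 9.67).

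The longest chain had 22 intervals over 75.1 kb on chromosome 19 at 50593986 to 50669055. Steps between all of its summits ran from 999 to 9855 bp, and the last 4 were 3789, 4415, 8186 and 9855 bp. Regular steps were seen among its tall summits. Of its intervals, 12 reached fold 10, with 58 to 262 pull-down reads over 3.51 to 13.7 input reads. From the first to the last of these tall summits the steps were 1809, 5348, 3061, 3070, 3047, 5352, 5352, 5354, 5337, 5319 and 5396 bp. Apart from the first, the steps thus fell into 2 sizes, 3 of 3047 to 3070 bp and 7 of 5319 to 5396 bp. The remaining 10 intervals had a median fold of 3.92. In 6 places a summit of fold under 10 preceded a tall one, at distances of 2042, 2062, 1962, 1970, 1958 and 2214 bp. Input background in the chain had a median of 7.86 reads, against 3.70 over the whole list.

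The second chain had 14 intervals over 59.4 kb on chromosome 19 at 48407382 to 48466798, with a median fold of 9.57 and a highest of 17.8. Its 5 summits of fold 10 or more lay 10782, 1982, 13763 and 10726 bp apart, and none of these steps fell within the 2 size ranges of the first chain. Between all 14 summits the steps ran from 1979 to 10396 bp. Steps of 5392 and 5369 bp fell within the larger size range of the first chain, and 5407 bp lay just above it. Steps of 1979, 1982 and 1994 bp and of 3305, 3396, 3367 and 3400 bp also recurred. The remaining steps were 10396, 7326 and 5790 bp. Its median input background was 7.39 reads. siCHD5 had a peak at 18 of 22 intervals of the first chain and at 14 of 14 of the second, beside 85.4% of all siNC intervals. From general knowledge of hg19, both places hold the tandem arrays of the SNAR genes, which encode short noncoding RNAs made by RNA polymerase III. In the RefSeq gene table of GRCh38, which was used for names and order only, 26 SNAR genes lie on chromosome 19. A run of 12 reads SNAR-A4, SNAR-A14, SNAR-A5 to SNAR-A11, SNAR-B1, SNAR-B2 and SNAR-D, and a run of 10 mixes SNAR-A and SNAR-C genes. These names were given after the values were seen. Copies of a tandem repeat are near-identical, so reads cannot be assigned to 1 copy with certainty, and the part of this in these peaks was not tested.

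**Figure D4:**
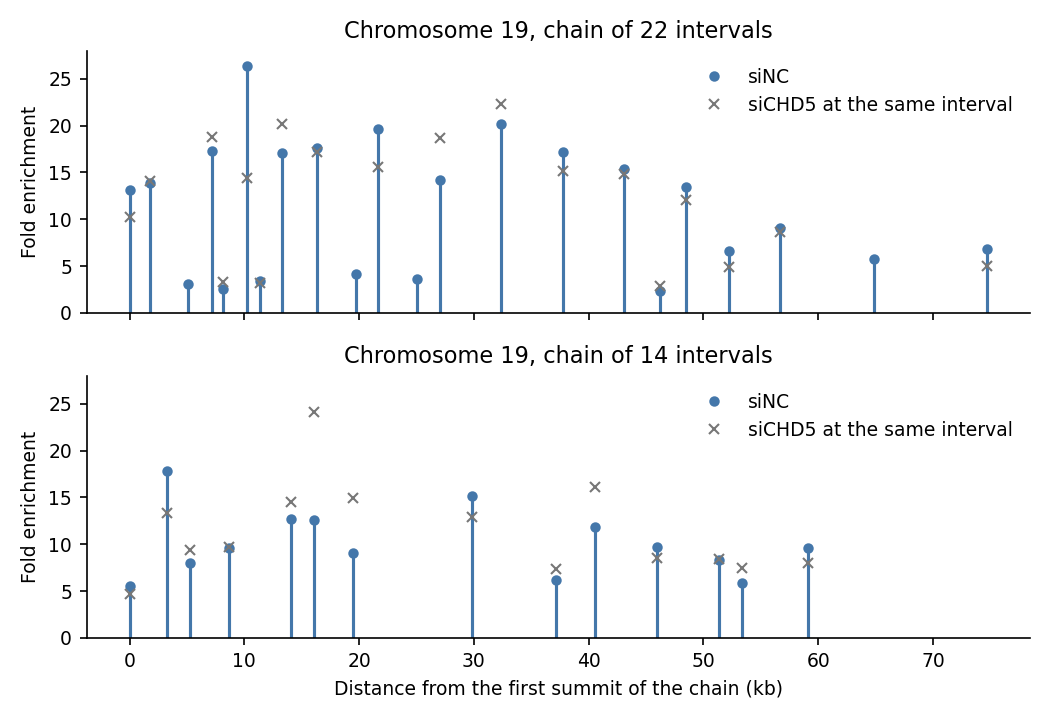
Fold enrichment of the siNC summits (circles on stems) in the chains of 22 and 14 intervals on chromosome 19, by distance in kb from the first summit of each chain; crosses give the siCHD5 fold at the same interval. In the first chain, after a first step of 1809 bp, tall summits of up to 26.4-fold recur at steps of 3047 to 3070 and 5319 to 5396 bp, with low summits between some of them.

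Of the 9 chains of 7 or more intervals, 7 remain. A chain of 8 on chromosome 7 at 38375235 to 38414409 lay among the variable segments of the T cell receptor gamma locus, with summits 9952, 4350, 4361, 4783, 4358, 4694 and 6336 bp apart. Its folds ran from 3.84 to 13.2, and its median input background of 3.17 reads was not raised. A chain of 7 on chromosome 19 at 43683736 to 43715300, with a highest fold of 12.0, lay among the pregnancy-specific glycoprotein (PSG) genes. Chains at HOXB (8 intervals on chromosome 17 at 46662530 to 46698533) and HOXD (7 on chromosome 2 at 176950972 to 176992178) had low medians of 4.34-fold and 4.84-fold, though the HOXD chain included a 19.2-fold summit. Chains of 8 on chromosome 1 at 156571349 to 156597657 and on chromosome 19 at 49977201 to 50010190 had medians of 6.002-fold and 5.77-fold. A chain of 7 lay on chromosome 11 at 65234807 to 65255547, in the region of the long noncoding RNAs NEAT1 and MALAT1. These names also come from general knowledge of hg19 and were given after the values were seen.

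Chromosomes differed 3.25-fold in density, taken as intervals per Mb up to the last interval. Chromosome 17 had 18.3 per Mb (17.3 to 19.2) and chromosome 19 had 17.7 (16.6 to 18.8), and the intervals of these 2 overlapped. Chromosome 22 followed with 11.8 (10.9 to 12.8) and chromosome 1 with 11.3 (10.9 to 11.7). The lowest were chromosome 21 with 5.61 (4.96 to 6.32), chromosome 18 with 5.99 (5.46 to 6.55), chromosome 13 with 6.24 (5.79 to 6.71) and chromosome 9 with 6.48 (6.06 to 6.91), each overlapping the next. Chromosomes 13, 14, 15, 21 and 22 had their first interval at 9.58 to 20.4 Mb. Counted from the first interval, chromosome 22 had 17.3 per Mb, close to chromosomes 17 and 19, and chromosome 21 had 7.01. Chromosomes 13, 14 and 15 then had 7.54, 10.1 and 12.4, so chromosome 13 stood above chromosome 4 (7.33). Chromosome 18 was then the lowest, with 5.99. Both ways of counting still include spans inside a chromosome without an interval, such as 19.6 Mb on chromosome 9. The longest such spans on chromosomes 1 and 16 were 22.2 and 13.1 Mb. Densities without these spans were not computed.

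Strength followed density only in part. The Spearman correlation of density and median fold was 0.67 over the 22 chromosomes, and that of density and median input background was −0.069. Chromosome 19 had the highest median fold (7.83), with the lowest median input background (2.64 reads), and chromosome 13 had the lowest median fold (5.91). Intervals of fold 15 or more made up 6.01% of chromosome 17 and 5.84% of chromosome 19, against 0.642% of chromosome 18 and 0.976% of chromosome 13. Chromosomes 4, 6 and 13 had the highest median input background (4.63, 4.75 and 4.41 reads). Copy number differs along the HEK293T genome, and its part in these values was not tested.

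**Figure D5:**
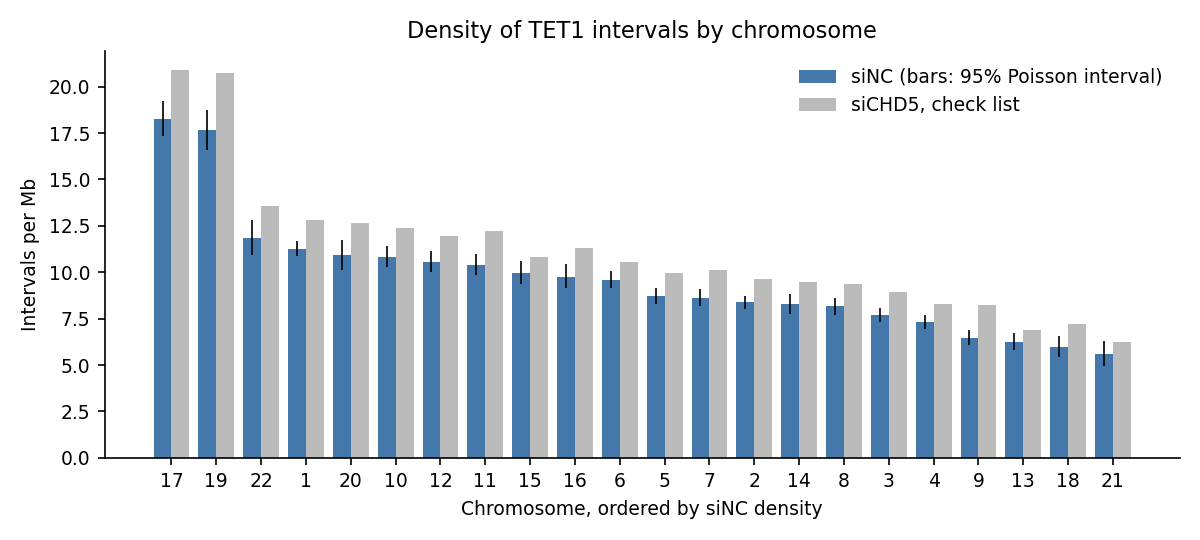
Intervals per Mb on each chromosome in siNC (left bar, with the exact Poisson 95% interval) and siCHD5 (right bar), ordered by siNC density. Chromosomes 17 and 19 stand apart at 18.3 and 17.7 per Mb in siNC, and the order is nearly the same in siCHD5.

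Chromosome ends had more intervals per Mb than the whole length up to the last interval. The first 5 Mb of the 17 chromosomes with an interval there held 11.3 per Mb, and the last 5 Mb of all 22 held 11.1 per Mb, against 9.31 per Mb over all. The value over all also counts the empty spans around centromeres and the stretch before a late first interval on some chromosomes. The ends leave these out, so the values are not like for like. Median fold was 7.33 in these ends (quartiles 5.49 and 9.59, 2187 intervals) and 6.74 elsewhere (4.98 and 9.02, 24620 intervals). The longest spans without an interval were on chromosome 1 (22.2 Mb, from 121485345 to 143656128), chromosome 9 (19.6 Mb, from 46941121 to 66571460) and chromosome 16 (13.1 Mb, from 33459266 to 46588295), each around the centromere, where siCHD5 had 1, 1 and 3.

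The siCHD5 list, of 30780 intervals on the same chromosomes, served as a check of the map. It met 22890 siNC intervals (85.4%, 84.96 to 85.8) by at least 1 bp, and siNC met 74.4% of its intervals. The share met was 99.8% in the highest of the 10 classes of siNC fold and 42.8% in the lowest. Width was nearly the same in both lists, while the longer siCHD5 list had shorter gaps and more close neighbours, beyond counting error. Median width was 299 bp in siNC and 300 bp in siCHD5, and median gap was 47.9 kb in siNC (46.9 to 48.8) and 41.9 kb in siCHD5. The median gap was 0.460 of the mean in siNC and 0.463 in siCHD5. A neighbour lay within 10 kb of 30.95% of intervals in siNC and 34.2% (33.7 to 34.7) in siCHD5, and several summits were listed for 1.32% in siNC and 1.60% (1.46 to 1.75) in siCHD5. Window counts of the lists had a Spearman correlation of 0.96, and chromosome densities one of 0.995. Of the densest 289 windows of siNC, 248 were also among the densest 289 of siCHD5. Whether the lists share input reads or cells was not analysed here, so the check is of repeatability between 2 lists and not between cultures.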

How the data were processed

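TET1 ChIP-seq peak lists of HEK293T cells were used as the authors deposited them. The submitters' processing notes name Bowtie2 2.3.4, SAMtools 1.9, MACS2 2.1.2, bedtools 2.25.0 and hg19, with no roles. For aligner and caller settings and for duplicates, the steps are not given in the sources used here. Each deposited row gives, at its summit, the fold (pull-down divided by local input), a −log10 p-value, a −log10 q-value and a score. In the deposited lists the score equals the q column times 10, cut to a whole number. List names carry replicates 1 to 3, so lists were taken as called on pooled replicates. The lowest −log10 q of the siNC list is 1.30.

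Peaks with the same start and end were counted as 1 interval, and its fold is that of its highest summit. Pileup t and input background b were solved from fold = (t + 1)/(b + 1) and the Poisson tail, with a tolerance of 0.02 on −log10 p. Windows of 1 Mb ran from each chromosome's start to its last interval, and intervals were placed by their midpoint. Members, landmark windows and rules were chosen with earlier results of these data known. Regions were named by rule: the 20 highest folds, the 10 widest, the 10 with most summits, the densest windows, the largest chains and the longest gaps. Chain names and the peak-poor exceptions were added after values were seen. No genome or annotation of hg19 was used, so sequences, motifs and gene distances were not analysed here. Procedures were checked on simulated data. Python 3.11.15, pandas 2.3.3 and scipy 1.17.1 were used.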

Additional observations from a re-analysis of the deposited data

Results flagged for a closer look

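The siNC list also holds peaks outside chromosomes 1 to 22, which no comparison above used: 1165 on chromosome X with a median fold of 6.5, 11 on chromosome Y with a median fold of 5.72, and 103 on unplaced or alternative sequences with a median fold of 6.005. They stand here because a signal was present in data outside the map described. Whether the reads on chromosome Y and on alternative sequences came from there was not tested.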

How the results depend on the processing

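Of 38 alternative values, 17 stayed within the counting error of the reported one (counts within 1.5 times, the variance ratio within 5%) and 21 moved. No paired analysis was possible because each group has 1 pooled list, and for the same reason no replicate could be left out. With peaks of fold 4 or more, median width was 305 bp, the share with several summits 0.706%, median fold 7.23, median gap 54.96 kb, the share with a neighbour within 10 kb 28.3%, the variance ratio 5.26 and the share met by siCHD5 88.1%. With peaks of −log10 q of 5 or more these were 304 bp, 0.701%, 7.17, 54.4 kb, 28.6%, 5.19 and 90.04%. The share with several summits thus fell by over 1.5 times under both, since low summits of an interval are lost first by construction. A neighbour lay within 5 kb of 18.2% and within 20 kb of 47.9%. Windows of 500 kb gave a variance ratio of 3.70 and 29.2% of intervals in the densest 10%, and windows of 2 Mb gave 9.40 and 25.1%. Asking for 50% of each interval lowered the share met by siCHD5 to 82.8%. Leaving out the intervals in the peak-poor stretches moved none of these results beyond the limits given above. The stretches themselves stayed in as empty windows and long gaps, so their part in the uneven spacing was not tested. Depth per library was not analysed here, so absence of a peak says only that none was called.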
